A study of Mus musculus with 14 samples.

Results

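LSK cells and LK cells, the stem-cell-enriched and the progenitor fractions of mouse bone marrow, were compared with each other in mice that had received interleukin-1β (IL-1β) for 16 weeks. The comparison used every LSK and every LK library from IL-1β-treated mice, 2 of each population and 4 of the 14 libraries of the series. LSK cells were sorted as Lin-Sca1+c-kit+ and LK cells as Lin-c-kit+ from C57BL/6 bone marrow depleted of lineage-positive cells, and the labels call the second fraction MP(LK). The gate described for LK cells does not name the absence of Sca1. Both populations, and the control libraries used beside them, carried one Jak2V617F allele (Jak2VF/+), switched on by Mx1Cre, an interferon-inducible Cre that acts in marrow and in other tissues, after polyinosine-polycytosine. The methods name Mx1Cre; Jak2VF/+ mice as the source of the sorted cells, and the treatment experiment is described in lethally irradiated C57BL/6 recipients of such marrow. IL-1β was injected into the peritoneum at 0.5 μg per dose (the labels print the unit with a faulty symbol) and 3 doses per week, and the control mice, 3 libraries per population, received PBS on the same schedule. No group without the Jak2V617F allele was part of this comparison. The methods give one age range, of young adult mice, for all experiments, and the sources used here give no age or number of animals for each library.

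LSK cells hold the hematopoietic stem cells and the multipotent progenitors, and LK cells hold the more numerous progenitors already biased to red cells, platelets, granulocytes or monocytes. Jak2V617F makes the kinase under the erythropoietin receptor and other cytokine receptors active without their ligands, and in mice one such allele gives a disease like polycythemia vera. IL-1β acts through Il1r1 and Il1rap, and its prolonged presence is known for driving stem cells towards the myeloid lineages. The comparison asked which genes set the 2 populations apart while IL-1β was present, and the PBS libraries show where that difference was itself different.

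The IL-1β libraries held 4393233 to 8641124 counted read pairs and were shallower than the PBS libraries of either population (12172400 to 18544346). Ly6a, which encodes Sca1, was at 14.8 and 26.2 CPM (TMM-normalized counts scaled to a common library total) in the LSK and at 1.99 and 0.643 CPM in the LK libraries, and Kit was between 296 and 391 CPM in all 4. The median log2 difference of these 2 genes, LSK minus LK, was 1.97 under IL-1β and 3.30 under PBS. The gate genes thus stood less far apart under IL-1β. The 2 LSK libraries (8641124 and 4393233 read pairs) were less alike than the 2 LK libraries (7652483 and 6367352). Of 11743 genes tested, 1119 were more than 2-fold apart between the LSK libraries and 167 between the LK libraries. The part of the unequal depth in these 2 counts was not tested. A nuclear ribosomal RNA gene that the rRNA depletion is meant to remove, CT010467.1, singled out after its values were seen, was at 24341 and 15634 CPM in the LSK and at 2980 and 2998 CPM in the LK libraries, and between 618 and 36682 CPM under PBS. Markers of other cells were not equally low. T and natural killer cell markers summed to at most 0.399 CPM, and B lymphocyte markers to between 11.1 and 18.4 CPM in the 4 libraries, nearly all of it Cd79b. Endothelial markers summed to 94.1 and 98.8 CPM in LSK and to 50 and 51.8 CPM in LK libraries, most of it Tie1 and Egfl7, and mesenchymal markers to 54.4 and 41.7 against 30.2 and 15.9 CPM, most of it Pdgfrb. Macrophage and plasma cell markers are given beside the genes they accompany.

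Under IL-1β, 491 genes were higher in LSK cells, 4.18% of those tested, and 486 were higher in LK cells (4.14%), by edgeR's quasi-likelihood test at a Benjamini-Hochberg adjusted p under 0.05 and a log2 difference above 0.5 in size. Log2 differences are LSK minus LK throughout. The 2 groups of libraries did not overlap in 59.5% of genes, and the median log2 difference over all genes was -0.02. With the replicate number as a block, which leaves 1 residual degree of freedom, the counts were 1013 (8.63%) and 1044 (8.89%). They depended on each library in turn. Without LSK replicate 1 they were 1976 and 2102, without LSK replicate 2 they were 2023 and 2147, without LK replicate 1 they were 197 and 246, and without LK replicate 2 they were 118 and 240. In the first pair of fits the spread came from the more alike LK libraries, and in the second pair from the LSK libraries. Counts of list members in the same fits are to be read against these totals over all genes. In bulk RNA a gene that was higher in one population because more of its cells expressed it cannot be told apart from one that was higher in each cell.

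**Figure D1:**
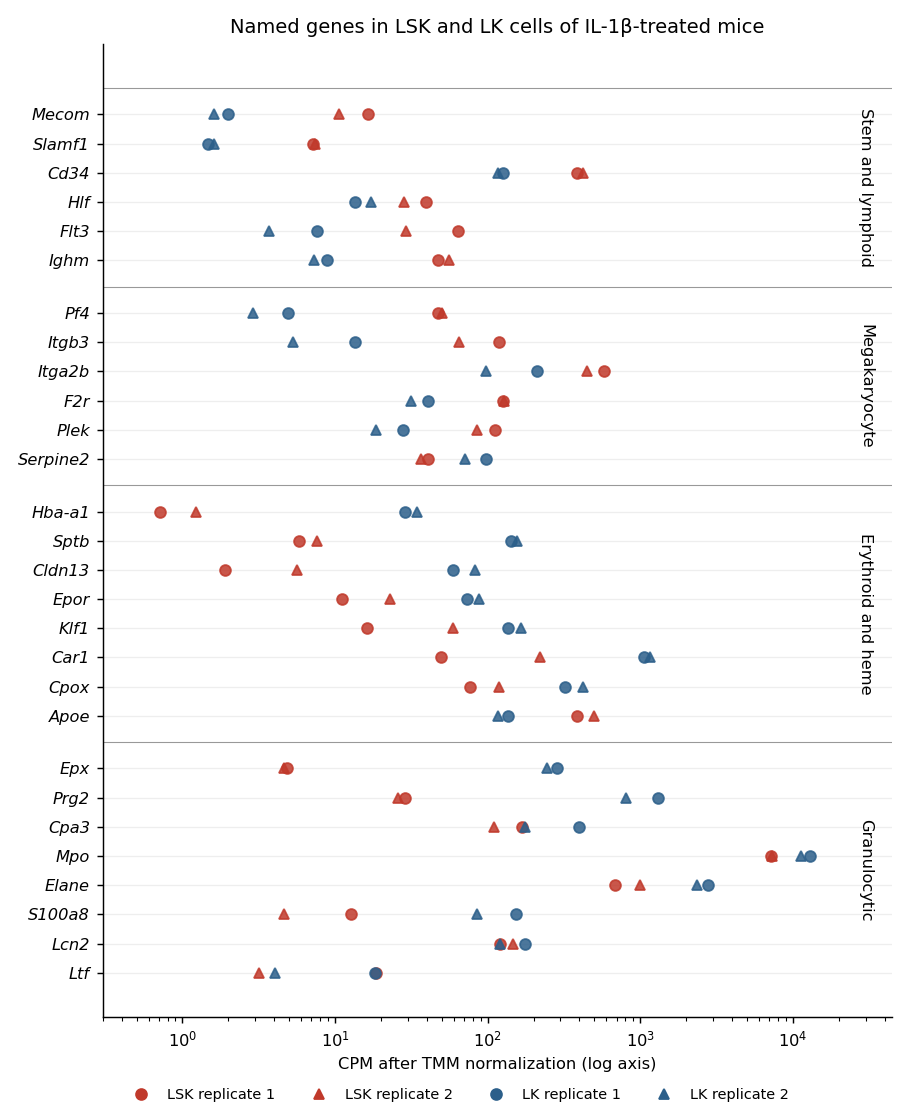
CPM after TMM normalization on a log axis for named genes in each of the 4 IL-1β libraries, with LSK in red, LK in blue, replicate 1 as circles and replicate 2 as triangles. Megakaryocyte genes other than Serpine2 sit to the right in LSK, and erythroid genes other than Apoe in LK. Lcn2 and Ltf overlap, and Ltf separates by replicate number (18.6 and 18.3 CPM against 3.19 and 4.02).

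Called stem cell genes were, with 1 exception, higher in LSK cells. Of the 40 genes listed, 32 passed the filter on low counts, 14 were higher in LSK cells and 1 in LK cells, Clca3a1 (-1.78), which with other genes outside the naming rule was singled out after its values were seen. The median of the 32 was 1.22, and with the block 22 were higher in LSK and 2 in LK cells. Without LSK replicate 1 the first count was 23 and without LSK replicate 2 it was 22. Mecom, a transcription factor needed for stem cell maintenance, was at 16.6 and 10.5 CPM in LSK and at 1.99 and 1.61 CPM in LK cells, a log2 difference of 2.91 ± 0.43 (SE) with an adjusted p of 0.0146. Cd34, a sialomucin of early progenitors, was at 384 and 425 against 127 and 116 CPM (1.73 ± 0.18, adjusted p = 0.00561). The libraries of the 2 populations stood well apart in each of these.

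Slamf1, which encodes the stem cell marker CD150, was at 7.22 and 7.35 against 1.46 and 1.61 CPM (2.24 ± 0.45, adjusted p = 0.0315). Its libraries did not overlap between populations, but the call was lost without LK replicate 1 (adjusted p = 0.243) or LK replicate 2 (0.212).

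Hlf, a transcription factor restricted to stem and multipotent cells, was at 39.8 and 28.4 CPM in LSK and at 13.4 and 17.2 CPM in LK cells. Its log2 difference of 1.17 ± 0.28 fell just outside the threshold (adjusted p = 0.050037). It passed with the block (0.00432), and not in a fit of all 10 libraries (0.0858) or after thinning to the shallowest library (0.0763). In all it was called in 7 of 10 alternative settings that left no library out. With 1 library left out the difference was 0.91 to 1.38. Procr, the endothelial protein C receptor and a marker of the most primitive cells, was at 2.72 and 1.47 CPM in LSK and 1.06 and 1.61 CPM in LK cells, so the libraries overlapped (0.72 ± 0.63, adjusted p = 0.5). Gata2 was at 323 and 288 against 234 and 148 CPM (0.68 ± 0.25, adjusted p = 0.126, and 0.0248 with the block). The 7 tested genes of the Hox clusters, out of 39, all had positive differences, with a median of 1.02, and none was called. With the block 3 were called higher in LSK cells. With 1 library left out the median of tested members was 0.91 to 1.44.

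Among 24 genes of lymphoid priming, 16 passed the filter and 4 were higher in LSK cells, none in LK cells, with a median of 0.51. With the block, and likewise without LSK replicate 2, 7 were higher in LSK cells and 1 in LK cells, and without LSK replicate 1 they were 6 and 4. The 4 were Flt3, Dntt, Ighm and Cd27. Flt3, the receptor tyrosine kinase that marks multipotent cells with lymphoid potential, was at 63.8 and 29.2 CPM in LSK and at 7.57 and 3.7 CPM in LK cells (3.05 ± 0.49, adjusted p = 0.0168). Ighm, the immunoglobulin heavy chain whose locus is transcribed before rearrangement, was at 47.6 and 55.9 against 8.9 and 7.24 CPM (2.67 ± 0.25, adjusted p = 0.00458).

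Dntt, the polymerase that adds bases at antigen receptor joins, had 25 and 27 counts in LSK and 0 in both LK libraries, which makes it at least 10.9-fold higher in LSK cells against 3 counts per library (adjusted p = 0.0246). Igkc, the κ light chain of B-lineage cells, was at 25.1 and 51.5 CPM in LSK and at 10.8 and 3.86 CPM in LK cells (2.35 ± 0.52, adjusted p = 0.0415, and 0.0953 in the fit of all 10 libraries). Plasma cell markers, Igkc included, summed to 51.8 and 121 CPM in LSK and to 32.7 and 11.1 CPM in LK libraries, with 2 or 3 of the 8 at 0 in each, and their part in the difference of Ighm was not tested. Cd74, the invariant chain of MHC class II, was at 12.2 and 32.8 against 2.66 and 1.45 CPM (3.39, adjusted p = 0.0212), and the class II chains H2-Aa and H2-Eb1 of the same list were also called (3.08 and 3.94). Of the 23 genes listed for monocytes and dendritic cells, 18 passed the filter, 6 were higher in LSK, 2 in LK cells (Fcgr3 and Ly6c2), and the median was 0.67. The 6 were 3 without LK replicate 2. Ly6c2, of the monocyte antigen Ly6C, was at 25.3 and 33.8 CPM in LSK and 144 and 120 CPM in LK cells (-2.17 ± 0.23, adjusted p = 0.00727). Psap, a lysosomal protein precursor, was at 440 and 492 against 270 and 242 CPM (0.87 ± 0.17, adjusted p = 0.0313), a call lost without LK replicate 1 (0.26), without LK replicate 2 (0.455) and in a fit of all 10 libraries (0.093).

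Megakaryocyte and platelet genes were higher in LSK cells than in LK cells. Of 26 listed, 19 passed the filter, 11 were higher in LSK cells and 1 in LK cells, with a median of 2.07, and with the block 16 and 1 were called. Pf4, the platelet factor 4 chemokine stored in α-granules, was at 47.4 and 50 CPM in LSK and at 4.92 and 2.9 CPM in LK cells, and had the largest log2 difference towards LSK among called genes with a mean of at least 4 log2 CPM (3.62 ± 0.31, adjusted p = 0.00448). Itgb3, the β3 chain of the fibrinogen receptor, was at 119 and 65.2 against 13.4 and 5.31 CPM (3.29 ± 0.47, adjusted p = 0.0145). Its partner Itga2b, the αIIb chain, was at 583 and 451 against 209 and 97.1 CPM (1.76 ± 0.36, adjusted p = 0.0317). In both, each population had its higher value in replicate 1. The call of Itgb3 was lost without LSK replicate 2 (0.0641), and that of Itga2b without LSK replicate 1 (0.382), LSK replicate 2 (0.309) or LK replicate 2 (0.0536).

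F2r, the thrombin receptor PAR1, was at 126 and 129 CPM in LSK and 40.8 and 31.4 CPM in LK cells (1.82 ± 0.21, adjusted p = 0.00874), and Plek, the platelet protein kinase C substrate pleckstrin, at 111 and 85.3 against 28 and 18.7 CPM (2.07 ± 0.27, adjusted p = 0.0117). The exception was Serpine2, a protease inhibitor, at 40.7 and 36.5 CPM in LSK and 98.3 and 70.6 CPM in LK cells (-1.12 ± 0.23, adjusted p = 0.035). Its call was lost without LK replicate 1 (0.358), without LK replicate 2 (0.0508) and in the fit of all 10 libraries (0.264). Other genes with the largest differences towards LSK were Vldlr, a lipoprotein receptor (3.34), the protease inhibitor homolog Ctla2a (2.74), Ptms (2.74), the platelet aggregation receptor Pear1 (2.73), the lymphocyte GTPase Gimap1 (2.72) and the calmodulin-binding Nrgn (2.69). The naming rule required that the LSK and LK libraries of these genes did not overlap, which held for 59.5% of all genes.

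Erythroid genes moved the other way. Of 35 listed, 34 passed the filter, 22 were higher in LK cells and 2 in LSK cells, with a median of -2.85 against -0.02 over all genes. With the block the counts were 29 and 2. The gene start regions of 3 of them are printed as the 250 bases before the annotated start of RefSeq (GRCm38.p6), 5′ to 3′ on the strand of the gene. They are shown because the transcription factor Gata1, which directs this program, binds AGATAA or TGATAA, and matches to these letters on either strand are in capitals.
Hba-a1 (chr11:32283422-32283671, plus strand): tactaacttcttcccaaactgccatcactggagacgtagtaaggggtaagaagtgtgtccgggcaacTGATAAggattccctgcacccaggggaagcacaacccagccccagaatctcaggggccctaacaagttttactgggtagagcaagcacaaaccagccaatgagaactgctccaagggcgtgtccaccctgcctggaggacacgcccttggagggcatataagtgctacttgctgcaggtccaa
Epor (chr9:21963577-21963826, minus strand): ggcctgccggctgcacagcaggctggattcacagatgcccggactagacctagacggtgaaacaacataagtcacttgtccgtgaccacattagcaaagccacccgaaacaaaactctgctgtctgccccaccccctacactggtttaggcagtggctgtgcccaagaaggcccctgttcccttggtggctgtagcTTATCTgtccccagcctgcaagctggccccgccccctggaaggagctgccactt
Klf1 (chr8:84901732-84901981, plus strand): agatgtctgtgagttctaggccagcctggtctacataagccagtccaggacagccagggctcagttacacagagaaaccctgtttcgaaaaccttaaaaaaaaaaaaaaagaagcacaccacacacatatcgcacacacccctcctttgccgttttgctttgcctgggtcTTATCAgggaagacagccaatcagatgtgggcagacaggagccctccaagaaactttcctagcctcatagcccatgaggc
Each held 1 match on either strand, beginning 183, 54 and 80 bases before the start. Such a match was in 15 of 33 regions of the erythroid genes (45.5%, covering 25 of the 35 genes) and in 16.6% of all 32851 regions. For mast cell, basophil and eosinophil genes it was in 10 of 24 regions (41.7%), and for heme synthesis in 3 of 10 (30%). It was in 6 of 20 regions of the megakaryocyte list (30%), which went towards LSK cells, and in 6 of 42 of stem cell genes (14.3%). The match describes letters, and binding was not measured.

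Hba-a1, an α-globin gene, was at 0.71 and 1.23 CPM in LSK and at 28.6 and 34.3 CPM in LK cells (-5.10 ± 0.39, adjusted p = 0.00375). It shares sequence with its copy Hba-a2, which was at 1.33 CPM or below in each library, so its level is uncertain where read pairs fit both genes. Epor, the erythropoietin receptor that signals through Jak2, was at 11.1 and 23 against 73.6 and 88.1 CPM (-2.29 ± 0.34, adjusted p = 0.015). Klf1, the erythroid master transcription factor, was at 16.2 and 59.1 against 136 and 165 CPM, without overlap, and did not pass (-2.05 ± 0.52, adjusted p = 0.0544). With the block its adjusted p was 6.03e-07, and it was under 0.05 without any one of the 4 libraries (from 2.6e-17 without LSK replicate 2 to 0.000706 without LK replicate 2).

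Gata1 itself was at 59 and 88 CPM in LSK and 108 and 131 CPM in LK cells (-0.71 ± 0.24, adjusted p = 0.111, 0.0307 with the block and 0.0863 in the fit of all 10 libraries). With 1 library left out its difference was -1.02 to -0.43. The β-globin gene Hbb-bs had 0 and 6 counts in LSK and 48 and 56 in LK cells (adjusted p = 0.0629, and 0.000145 with the block), and its near copy Hbb-bt was at 3.19 and 11.5 against 8.11 and 11.6 CPM, so the split of read pairs between them is uncertain. Car1 and Car2, the carbonic anhydrases of red cells, were at 49.2 and 219 against 1066 and 1165 CPM (-3.08 ± 0.60, adjusted p = 0.0296) and at 145 and 281 against 745 and 950 CPM (-2.00 ± 0.32, adjusted p = 0.0168). The call of Car1 was lost with no filter on low counts (0.37). Tfrc, the transferrin receptor, was at 388 and 311 against 869 and 859 CPM (-1.30 ± 0.19, adjusted p = 0.0146). In 26 of the 34 tested genes replicate 2 was above replicate 1 in LSK and in LK cells alike, against 27.4% of all genes, and the reverse held in 3.

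Further erythroid genes among the largest differences towards LK cells were Sptb, the membrane skeleton protein β-spectrin (5.8 and 7.6 against 142 and 156 CPM, -4.50), and Cldn13, an erythroid claudin (-4.39). Btnl10 (-4.91), the sulfate transporter Slc26a1 (-4.55), the membrane proteins Paqr9 (-5.03) and Tmem56 (-4.96) belonged to no list and had the same pattern. The erythroid genes that were higher in LSK were Nfe2 (0.99) and Apoe, which both have roles in other lineages, Nfe2 in platelet formation and Apoe in lipid transport. Apoe was at 386 and 498 against 136 and 117 CPM (1.81 ± 0.20, adjusted p = 0.00823).

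All 9 enzymes of heme synthesis passed the filter and had negative differences, 4 were higher in LK cells (Alas2, Uros, Cpox and Fech), and 7 with the block. The 4 were 8 without LSK replicate 2 and 2 without LK replicate 2. Alas2, the erythroid first enzyme, had 0 counts in both LSK libraries and 20 and 19 in the LK libraries, at least 5.24-fold lower in LSK cells against 3 counts per library (adjusted p = 0.0277). That call was lost without LK replicate 1 (0.0822) or LK replicate 2 (0.125). Cpox, coproporphyrinogen oxidase, was at 76.4 and 119 against 320 and 421 CPM (-1.93 ± 0.26, adjusted p = 0.0126). Of 20 tested genes of iron handling and antioxidant defense, 5 were higher in LK cells (the iron exporter Slc40a1, the iron importer Slc11a2, the glutathione enzymes Gclc and Gsr, and the metallothionein Mt2) and 1 in LSK cells, the superoxide dismutase Sod1 (0.97). With the block 10 and 2 were called. The 5 were 12 without LSK replicate 2, 2 without LK replicate 2 and 3 in the fit of all 10 libraries.

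**Figure D2:**
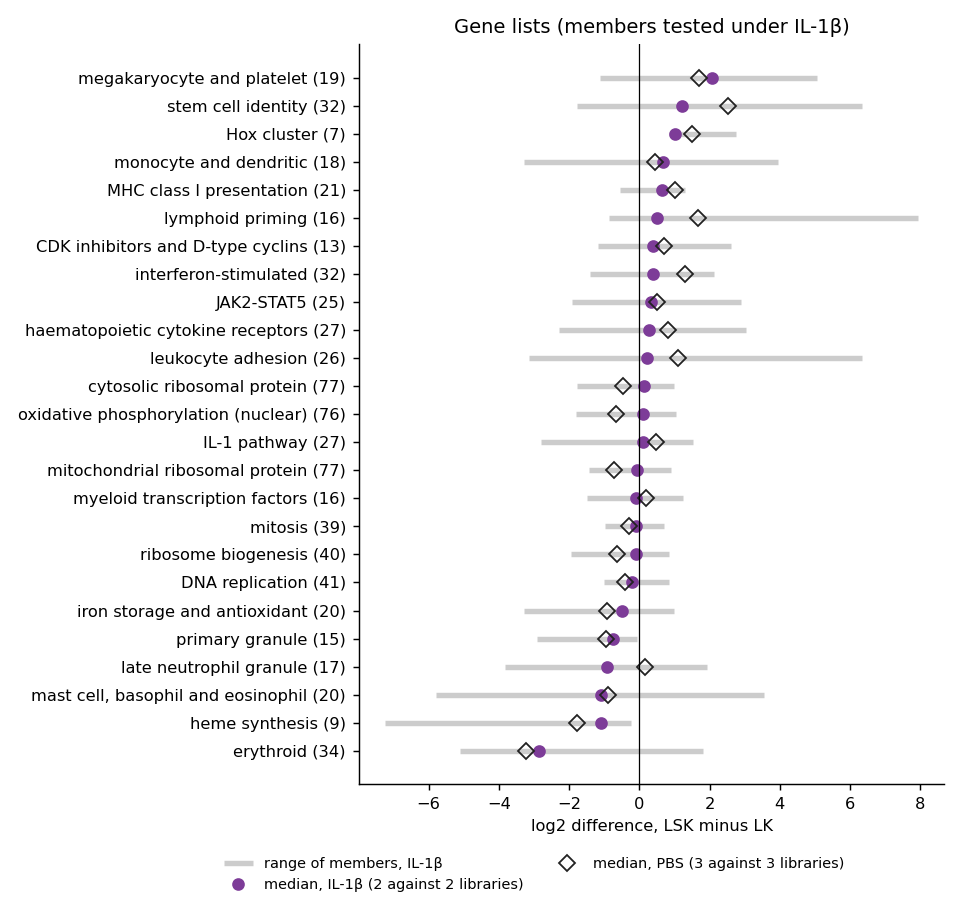
Median log2 difference, LSK minus LK, of each gene list with at least 7 tested members under IL-1β (filled circles, with the range of members as a bar) and under PBS (open diamonds), with the number of members tested under IL-1β in brackets. The megakaryocyte median was 2.07 under IL-1β and 1.71 under PBS, that of stem cell genes 1.22 and 2.51, and the erythroid median -2.85 and -3.23.

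Among called genes with a mean of at least 4 log2 CPM, those of eosinophils gave the largest differences. Epx, eosinophil peroxidase, was at 4.85 and 4.66 CPM in LSK and at 283 and 246 CPM in LK cells (-5.78 ± 0.24, adjusted p = 0.000382). Prg2, the eosinophil major basic protein, was at 28.8 and 25.7 against 1301 and 805 CPM (-5.26 ± 0.30, adjusted p = 0.00121), a call lost without LSK replicate 1 (0.0865) or LSK replicate 2 (0.0856), where the spread between the LK libraries set the error. Of 24 listed genes of mast cells, basophils and eosinophils 20 passed the filter, 6 were higher in LK cells and 1 in LSK cells, with a median of -1.08, and with the block 13 and 1. The 6 were 10 without LSK replicate 1. The gene higher in LSK was the mast cell chymase Cma1 (26.4 and 13.2 against 2.52 and 0.804 CPM). Cpa3, the mast cell carboxypeptidase, was at 168 and 110 CPM in LSK and 399 and 176 CPM in LK cells, close but without overlap. It was not called (-1.04 ± 0.39, adjusted p = 0.139), whereas it was with the block (0.00202). In the fit of all 10 libraries it was not called (0.118), and with 1 library left out its difference was -1.52 to -0.36. In 16 of the 20 genes replicate 1 was above replicate 2 in both populations, against 25.7% of all genes, and in none was replicate 2 above in both.

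Genes listed for the primary granules, which promyelocytes fill with peroxidase and serine proteases, were either called higher in LK cells or not called. The list is wider than the granule contents and also holds the chaperone Calr and membrane proteins such as Clec12a. All 15 listed were tested, each had a negative difference, and 4 were called higher in LK cells (Elane, Cst7, Clec12a and Igsf6), with a median of -0.75 and with 7 called under the block. The 4 were 1 in the fit of all 10 libraries, 7 without LSK replicate 1 and 10 without LSK replicate 2. The regions before the starts of Elane and Mpo are printed as above, with AGGAAGT, a sequence bound by ETS factors such as PU.1, in capitals.
Elane (chr10:79886062-79886311, plus strand): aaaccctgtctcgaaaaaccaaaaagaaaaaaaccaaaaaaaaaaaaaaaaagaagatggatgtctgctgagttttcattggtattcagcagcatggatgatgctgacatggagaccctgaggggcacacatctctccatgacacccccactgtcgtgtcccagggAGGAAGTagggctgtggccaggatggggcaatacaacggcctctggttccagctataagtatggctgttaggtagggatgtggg
Mpo (chr11:87793534-87793783, plus strand): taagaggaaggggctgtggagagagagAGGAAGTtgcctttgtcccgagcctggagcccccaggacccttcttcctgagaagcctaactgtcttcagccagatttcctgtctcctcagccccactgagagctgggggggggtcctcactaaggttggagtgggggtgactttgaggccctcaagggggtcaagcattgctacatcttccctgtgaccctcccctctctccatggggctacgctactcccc
Each held 1 match on either strand. Of 12 genes of this list with such a region 7 had a match (58.3%), against 7.69% of all regions. The match was also in 7 of 23 regions of the late neutrophil granule list (30.4%).

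Elane, neutrophil elastase, was at 684 and 1003 CPM in LSK and at 2764 and 2356 CPM in LK cells (-1.60 ± 0.23, adjusted p = 0.0145), and its call was lost in the fit of all 10 libraries (0.0644). Mpo, myeloperoxidase, was at 7174 and 7290 against 12992 and 11339 CPM, without overlap, and its difference of -0.75 ± 0.19 did not pass (adjusted p = 0.0531). It did not pass with the block (0.0629) or in the fit of all 10 libraries (0.193), and was called in 3 of 10 alternative settings that left no library out. With 1 library left out the difference was -0.85 to -0.67. The proteases Prtn3 and Ctsg were at 1001.5 and 1976 against 3059 and 2690 CPM (-0.95, adjusted p = 0.0992, and 0.0056 with the block) and at 718 and 1192 against 2080 and 1640 CPM (-0.96, adjusted p = 0.0679, and 0.00504 with the block). Neither passed in the fit of all 10 libraries (0.21 and 0.215). With 1 library left out the differences were -1.52 to -0.52 for Prtn3 and -1.38 to -0.63 for Ctsg. LSK replicate 1 was the lowest of the 4 libraries in Elane, Mpo, Prtn3 and Ctsg alike.

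Late neutrophil granule genes, which are made after the promyelocyte stage, did not move together. Of 24 listed, 17 passed the filter, 6 were higher in LK cells and 1, Lyz2 (1.10), in LSK cells, with a median of -0.93, which was 0.11 without LK replicate 1. With the block 9 and 2 were called, and 3 were higher in LK cells without either one of the LSK libraries and in the fit of all 10 libraries. S100a8, the calprotectin subunit, was at 12.7 and 4.66 CPM in LSK and 154 and 85.7 CPM in LK cells (-3.69 ± 0.48, adjusted p = 0.0115), a call lost without LSK replicate 1 (0.172) or LSK replicate 2 (0.184). Lcn2, the iron-scavenging lipocalin, was at 120 and 146 against 175 and 121 CPM, with overlap (-0.15 ± 0.23, adjusted p = 0.701). Under PBS it was at 0.465 to 1.75 CPM in LSK and 1.86 to 4.17 CPM in LK cells. Ltf, lactoferrin, was at 18.6 and 3.19 against 18.3 and 4.02 CPM, and Camp, the cathelicidin precursor, at 5.21 and 0 against 10.1 and 1.13 CPM. In both genes the replicates of the same number lay closer together than the 2 libraries of one population did. In 10 of the 17 tested genes replicate 1 was above replicate 2 in both populations, and in 1 the reverse. Anxa1, the anti-inflammatory annexin, was at 132 and 168 against 393 and 231 CPM (-1.06, adjusted p = 0.0593, 0.00227 with the block and 0.0644 in the fit of all 10 libraries). With 1 library left out its difference was -1.40 to -0.64.

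Of 20 listed transcription factors of the myeloid lineage, 16 passed the filter and 2 were higher in LK cells, Cebpe and Nfe2l2, with a median of -0.09. Without LSK replicate 1, 4 were higher in LSK and 4 in LK cells, without LSK replicate 2 they were 2 and 5, without LK replicate 1 none was called, and without LK replicate 2 only 1, in LK cells. Cebpe, which drives the late granule program, was at 28.6 and 25.7 against 85.7 and 67.1 CPM (-1.48 ± 0.22, adjusted p = 0.015), a call lost without LK replicate 1 (0.0626) and in the fit of all 10 libraries (0.222). Cebpa was at 321 and 491 in LSK and 322 and 242 CPM in LK cells (adjusted p = 0.221), and Spi1, which encodes PU.1, at 201 and 253 against 203 and 182 CPM (adjusted p = 0.455). With 1 library left out the differences were 0.19 to 0.82 for Cebpa and 0.06 to 0.41 for Spi1. Irf8 (24.6 and 28.9 against 9.83 and 23.6 CPM) and Csf1r, the M-CSF receptor (15.3 and 14.7 against 4.78 and 11.1 CPM), were not called (adjusted p = 0.323 and 0.21). Gfi1 was at 62.7 and 89.7 against 142 and 133 CPM (-0.86, adjusted p = 0.0571, 0.00842 with the block and 0.167 in the fit of all 10 libraries). With 1 library left out its difference was -1.13 to -0.60.

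Of 27 tested cytokine receptors, out of 31, 4 were higher in LSK (Flt3, Il10ra and Il4ra among them) and 2 in LK cells (Epor and Ifngr1), with a median of 0.27. With the block the counts were 5 and 5. The first count was 7 without LSK replicate 1, 10 without LSK replicate 2, 2 without LK replicate 1 and 1 without LK replicate 2. Ifngr1, a chain of the interferon-γ receptor, was at 124 and 168 against 356 and 277 CPM (-1.11 ± 0.22, adjusted p = 0.0304), a call lost without LK replicate 1 (0.199) and in the fit of all 10 libraries (0.127). Csf3r, the G-CSF receptor, was at 88.4 and 81.9 in LSK and 144 and 126 CPM in LK cells (-0.66, adjusted p = 0.0706, 0.0461 with the block and 0.227 in the fit of all 10 libraries). With 1 library left out its difference was -0.76 to -0.58. Under PBS its order was the opposite, with 89.3 to 99.8 CPM in LSK and 19.2 to 43.6 CPM in LK cells (1.42, adjusted p = 0.00631).

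None of the 27 tested genes of the IL-1 pathway, out of 33, was called, with a median of 0.10. Il1r1, the signaling receptor, was at 32.2 and 16.4 CPM in LSK and at 9.7 and 7.88 CPM in LK cells, without overlap (1.49 ± 0.38, adjusted p = 0.0573). It passed with the block (0.00203) and in the fit of all 10 libraries (0.0425), and not after thinning (0.0728). With 1 library left out its difference was 0.91 to 1.86. Its co-receptor Il1rap was at 16.7 and 14.5 against 31 and 24.4 CPM (-0.82 ± 0.26, adjusted p = 0.094, 0.0507 with the block and 0.271 in the fit of all 10 libraries). With 1 library left out the difference of Il1rap was -0.99 to -0.66. Il1rl1, the receptor of IL-33, was at 73 and 34.8 against 85.4 and 59.8 CPM, with overlap (-0.41, adjusted p = 0.506, and -1.05 to 2.3e-05 with 1 library left out). With the block 1 gene of the list was higher in LSK and 2 in LK cells. The list had 3 and 7 without LSK replicate 1, and 5 and 4 without LSK replicate 2. Il1b and Il1a, which encode the ligands, did not pass the filter on low counts.

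Jak2 was at 72.9 and 52.7 CPM in LSK and 85.4 and 80.4 CPM in LK cells (-0.39 ± 0.23, adjusted p = 0.309, and -0.64 to -0.19 with 1 library left out). The counts do not separate the mutant from the normal allele. Of 25 genes of the JAK2-STAT5 pathway, all tested, 2 were higher in LSK, the feedback inhibitor Socs3 (2.88) and the kinase Pim2 (1.65), and 2 in LK cells, Tfrc and Gfi1b, which are also erythroid genes. With the block 7 and 2 were called, without LSK replicate 1 they were 7 and 5, without LSK replicate 2 they were 10 and 4, and without LK replicate 2 they were 1 and 2. Pim1, a STAT5 target kinase, was at 256 and 274 against 175 and 151 CPM (0.70 ± 0.18, adjusted p = 0.0536). It passed with the block (0.0255) and in the fit of all 10 libraries (0.0465), and not with DESeq2 size factors (0.0514). With 1 library left out its difference was 0.59 to 0.80. The STAT5 targets Socs2 (4.26 and 6.37 against 2.26 and 2.25 CPM) and Cish (1.77 and 8.33 against 8.77 and 6.92 CPM) were not called (adjusted p = 0.159 and 0.505). With 1 library left out the differences were 0.91 to 1.51 for Socs2 and -2.14 to 0.097 for Cish.

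Genes of MHC class I presentation were all measured, and 5 of 21 were higher in LSK cells, none in LK cells, with a median of 0.65. They were the peptide transporter Tap2 (492 and 524 against 221 and 202 CPM, 1.26), the immunoproteasome subunits Psmb8 (1.30), Psmb9 (1.19) and Psmb10 (1.29), and the class Ib gene H2-Q4 (1.01), whose family shares sequence. With the block 10 were called. In the fit of all 10 libraries 3 were called. The median was 0.77 without LSK replicate 1, 0.33 without LSK replicate 2, 0.56 without LK replicate 1 and 0.64 without LK replicate 2. In 14 of the 21 genes replicate 2 was above replicate 1 in both populations, against 27.4% of all genes, and the reverse held in 2. The classical heavy chains H2-K1 (1227 and 1781 against 1055 and 1164 CPM) and H2-D1 (924 and 1434 against 923 and 962 CPM) were not called (adjusted p = 0.241 and 0.407). Of 32 tested interferon-stimulated genes, out of 40, 1 was called, the DNA sensor family gene Ifi203 (2.12), and with the block 6 were higher in LSK and 1 in LK cells. Without LSK replicate 1 the list had 12 and 2, and without LSK replicate 2 it had 6 and 4.

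Few cell cycle genes were called, and the number rose without either LSK library, as did the number over all genes. Of 41 genes of DNA replication 1 was higher in LSK cells, the ligase Lig1 (0.86), none was higher in LK cells, and the median was -0.20. None of 39 mitosis genes was called, with a median of -0.10, whereas 4 were higher in LSK and 5 in LK cells without LSK replicate 1 and, again, without LSK replicate 2. Mki67, the proliferation antigen, was at 435 and 221 in LSK and 503 and 524 CPM in LK cells (-0.64 ± 0.31, adjusted p = 0.231, 0.0352 with the block and 0.284 in the fit of all 10 libraries). With 1 library left out its difference was -1.20 to -0.24. Without LSK replicate 2, 13 replication genes were called higher in LK and 4 in LSK cells, and without LSK replicate 1 they were 5 and 6. Of 13 tested CDK inhibitors and cyclins, 3 were higher in LSK cells, the D-type cyclin Ccnd1 (62.1 and 38.2 against 9.7 and 6.92 CPM, 2.60) and the CDK inhibitors Cdkn1a (1.78) and Cdkn2d (1.34), and Rb1 (-1.17) was higher in LK cells. The 3 were 5 without LSK replicate 1, 6 without LSK replicate 2 and 1 without LK replicate 2. Cdkn1c, an imprinted CDK inhibitor of quiescent stem cells, was at 2.25 and 1.72 against 0.797 and 1.13 CPM (adjusted p = 0.315). Of 6 imprinted growth genes tested, out of 19, Igf2r, the receptor that clears Igf2, was at 2.72 and 3.92 against 24.1 and 23 CPM (-2.86 ± 0.33, adjusted p = 0.00845).

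Among adhesion genes, 26 of 30 passed the filter, 6 were higher in LSK and 2 in LK cells. Besides Itgb3 and Cd34, the 6 included the platelet selectin Selp (2.04) and the junction proteins Esam and F11r (3.80). Esam had 51 and 36 counts in LSK and 1 and 0 in LK cells, at least 16.9-fold higher in LSK against 3 counts per library. The 2 were Prom1 and Vcam1. Vcam1, known from stroma, endothelium and marrow macrophages, was at 2.84 and 2.94 against 29.2 and 21.6 CPM (-3.13 ± 0.34, adjusted p = 0.00739). The 12 macrophage markers, Vcam1 included, summed to 10.4 and 24.3 CPM in LSK and to 44.2 and 33.9 CPM in LK cells, with 4 at 0 in every library, and of the others the one that passed the filter with the highest level, Cd68, was at 4.97 and 14 against 9.97 and 6.27 CPM. Of endothelial markers, Tie1, also a stem cell gene, was higher in LSK (44 and 32.3 against 7.71 and 9.33 CPM, 2.18, adjusted p = 0.0115) and Flt1 in LK cells (-2.14). Of 10 endothelial genes between 3 and 5 were at 0 in each library. Neither of the 2 mesenchymal markers that passed the filter was called.

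The genes of ribosomes and of the nuclear-encoded respiratory chain were split by library. Of 77 cytosolic ribosomal protein genes 5 were higher in LSK and 3 in LK cells, with a median of 0.13, beside 4.18% and 4.14% of all genes. Without LSK replicate 1 the counts were 25 and 8 with a median of 0.36, and without LSK replicate 2 they were 7 and 26 with a median of -0.25. Of 76 genes of oxidative phosphorylation 5 and 2 were called, 34 and 6 without LSK replicate 1 (median 0.42) and 8 and 24 without LSK replicate 2 (median -0.22). Of 77 mitochondrial ribosomal protein genes 2 and 3 were called, 20 and 5 without LSK replicate 1 and 4 and 32 without LSK replicate 2. Without either one of the LK libraries none of the 3 lists had a gene higher in LSK cells, nor had the cytosolic ribosomal protein and oxidative phosphorylation lists in the fit of all 10 libraries. The median of each of the 3 lists thus changed sign with the LSK library left out (0.19 and -0.33 for the mitochondrial ribosomal proteins). Of 40 genes of ribosome biogenesis, Fbl, the fibrillarin of nucleolar RNA, was at 813 and 810 CPM in LSK and 436 and 475 CPM in LK cells (0.84 ± 0.17, adjusted p = 0.0329), a call lost without LK replicate 1 (0.442), without LK replicate 2 (0.356) and in the fit of all 10 libraries (0.159). Nop10 (-1.93) and Utp4 (-1.01) were higher in LK cells.

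Transcripts encoded by the mitochondrial genome were lower in LSK cells. This list was added after its values had been seen. Of 13 protein genes, 8 passed the filter and 6 were higher in LK cells, with a median of -2.90. The one the naming rule picked, mt-Nd4 of complex I, was at 7.1 and 5.88 CPM in LSK and at 164 and 195 CPM in LK cells (-4.76 ± 0.25, adjusted p = 0.000973), and its call was lost in the fit of all 10 libraries (0.0644). The most abundant, mt-Co1, was at 309 and 345 against 1921 and 2269 CPM (-2.68). The exception was mt-Nd6, the protein gene on the other strand, at 33.8 and 26.2 against 19.3 and 20.1 CPM (0.62, adjusted p = 0.159). Under PBS the level varied among LSK libraries, with mt-Nd4 at 103, 17.6 and 224 CPM, and the LSK library with the lowest level, replicate 2, also had the most CT010467.1 (36682 CPM). In the LK PBS library with 35697 CPM of CT010467.1, replicate 1, mt-Nd4 was at 300 CPM. The part of ribosomal RNA and RNA quality in these differences was not tested. Leaving the mitochondrial genes out of the counts gave 480 and 472 called genes.

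**Figure D3:**
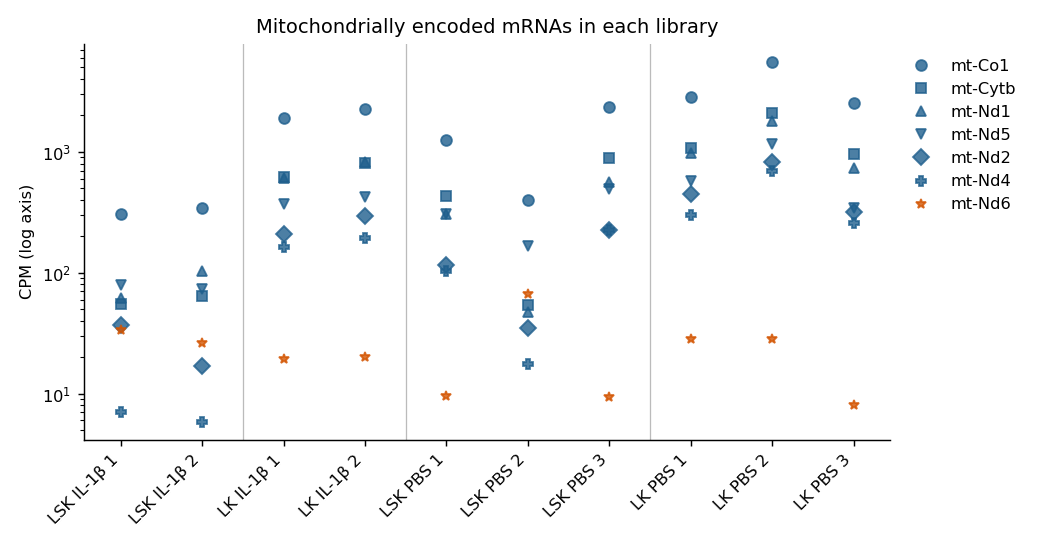
CPM on a log axis of 7 mitochondrially encoded protein genes in each LSK and LK library, with mt-Nd6 as orange stars and the others in blue. In the 2 LSK IL-1β libraries and in LSK PBS replicate 2, mt-Nd4 lies at or below 17.6 CPM, and in the other 7 libraries at or above 103 CPM.

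Under PBS, with 3 libraries per population, 2345 genes were higher in LSK (18.4% of 12737 tested) and 1635 in LK cells (12.8%). The numbers of calls are not comparable between treatments, since the numbers and depths of the libraries differed. Over the 11578 genes tested under both, the differences had a Pearson r of 0.71 across genes, which are not independent, and a median size of 0.39 under IL-1β and 0.51 under PBS. Of the genes called higher in LSK under IL-1β 65.4% were also called so under PBS, and of those in LK 68.5%. In the other direction, 15.3% and 20% of the PBS calls were called under IL-1β. Only Rnf144b and Cdc42ep4 were called in opposite directions. Rnf144b, a ubiquitin ligase, was at 3.19 and 4.41 CPM in LSK and 16.7 and 11.7 CPM in LK cells under IL-1β, and at 6.99 to 20.7 against 2.15 to 3.03 CPM under PBS. Cdc42ep4, an effector of Cdc42, was higher in LSK under IL-1β (0.83) and in LK under PBS (-0.59).

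**Figure D4:**
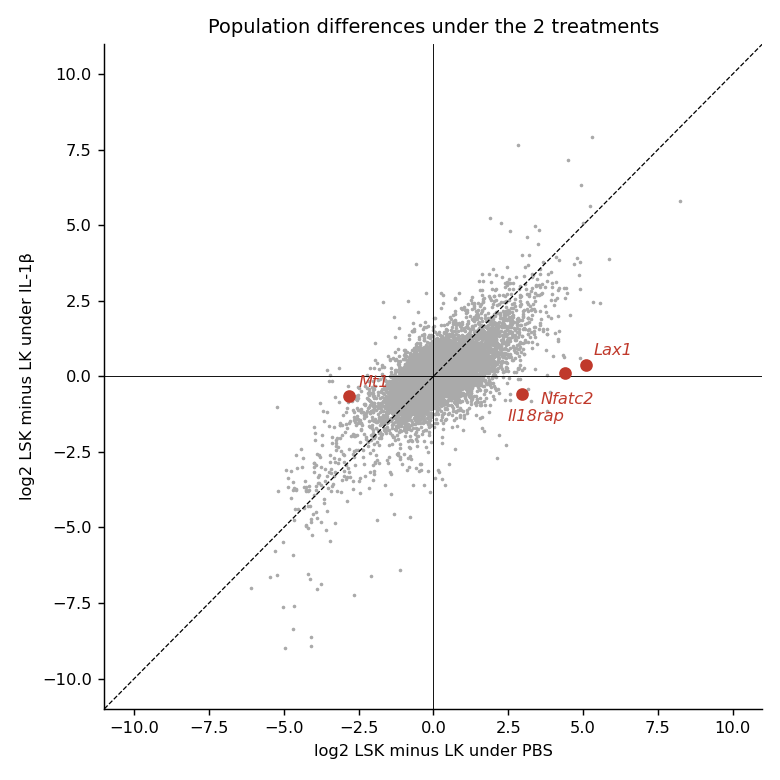
Log2 difference, LSK minus LK, under PBS (x axis) and under IL-1β (y axis) for each of the 11578 genes tested in both, with the line of equality dashed and the 4 genes whose difference itself differed in red. Lax1, Nfatc2 and Il18rap lie at 5.11, 4.41 and 2.96 on the PBS axis and at 0.36, 0.11 and -0.57 on the IL-1β axis.

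A test of the difference between the 2 contrasts, over all 10 libraries, called 4 of 13839 genes (0.0289%), and 1967 had a p under 0.05 before adjustment (14.2%). With a block for each treatment and replicate number, 24 were called (0.173%), and in 23 of these the LSK minus LK difference was smaller or more negative under IL-1β. The count ranged from 0 to 336 with the library left out, and was 336 without LSK PBS replicate 2, 199 without LSK IL-1β replicate 1 and 0 without either LK IL-1β library, LSK IL-1β replicate 2 or LK PBS replicate 2.

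Mt1, a metallothionein that binds zinc and copper, was at 166 and 188 CPM in LSK and 277 and 279 CPM in LK cells under IL-1β, and at 31.4, 31.1 and 27.4 against 230, 194 and 189 CPM under PBS. The LSK values under IL-1β were close to the LK values under PBS, and the population difference went from -2.81 to -0.65, a change of 2.12 with an adjusted p of 0.0123. The difference under IL-1β had an adjusted p of 0.0609, and of 0.0407 with the block. The 250 bases before its start follow, with the core of the metal response element, TGCACNC or TGCGCNC on either strand, in capitals, because that element is known for driving this gene.
Mt1 (chr8:94178839-94179088, plus strand): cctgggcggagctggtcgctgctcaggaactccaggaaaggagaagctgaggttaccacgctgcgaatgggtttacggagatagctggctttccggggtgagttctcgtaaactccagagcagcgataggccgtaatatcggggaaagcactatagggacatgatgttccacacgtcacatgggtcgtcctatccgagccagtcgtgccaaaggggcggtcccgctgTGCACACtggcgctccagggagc
The window held 1 match, 23 bases before the start, and 21.4% of all regions held at least 1.

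For the other 3 genes a large difference under PBS stood beside one under IL-1β that was not called. Nfatc2, a calcium-regulated transcription factor, was at 4.73 and 3.43 CPM in LSK and 3.72 and 4.02 CPM in LK cells under IL-1β, with overlap, and at 29.5, 22 and 18.3 against 1.12, 1.19 and 0.862 CPM under PBS (change -4.34, adjusted p = 0.0163). Lax1, a membrane adaptor of lymphocytes, was at 4.14 and 2.7 against 2.26 and 3.22 CPM, and at 12, 11.8 and 16.2 against 0.319, 0.361 and 0.431 CPM under PBS (change -4.78, adjusted p = 0.031). Il18rap, a chain of the IL-18 receptor and a relative of Il1rap, was at 28.9 and 13 against 40.8 and 23 CPM, and at 60.7, 45.3 and 59.5 against 6.31, 5.62 and 8.83 CPM under PBS (change -3.58, adjusted p = 0.0479). In all 3 the LSK libraries were lower and the LK libraries higher under IL-1β than in any PBS library of their own population.

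**Figure D5:**
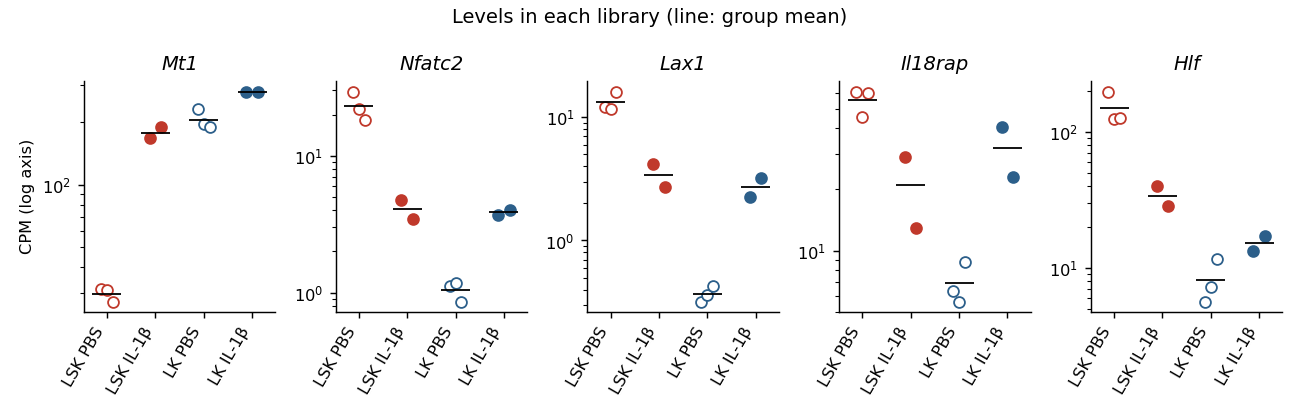
CPM on log axes, one panel per gene, for Mt1, Nfatc2, Lax1, Il18rap and Hlf in the LSK (red) and LK (blue) libraries under PBS (open) and IL-1β (filled), with lines at the group means. Nfatc2 is at 18.3 to 29.5 CPM in LSK under PBS and at 3.43 to 4.73 CPM in both populations under IL-1β.

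Stem cell genes were among those whose difference was smaller under IL-1β without passing the test. Hlf was at 198, 124 and 126 CPM in LSK and 5.67, 7.22 and 11.6 CPM in LK cells under PBS, a difference of 4.16 against 1.17 under IL-1β (change -3.03, adjusted p = 0.0649, and 0.0311 with the block). Procr was at 12.1, 5.73 and 12.9 against 0.319, 0.412 and 0.718 CPM under PBS (change -3.68, adjusted p = 0.138). The change for Csf3r was -2.12 (adjusted p = 0.104, and 0.0311 with the block). For Pf4 (1.12), Itga2b (-0.21), Flt3 (-0.06) and Cd34 (-0.33) the adjusted p of the change was at least 0.443. The 2 genes of the sort gate, Ly6a and Kit, both had a p under 0.05 for the change before adjustment and neither was called after, with a median change of -1.36. The part of the sort in the other changes was not tested. Of the 39 stem cell genes tested for the change, 12 had a p under 0.05 before adjustment and none after, with a median change of -0.71. Of 76 genes of oxidative phosphorylation 29 did, with a median change of 0.79, and none was called after adjustment. The PBS median of that list was -0.68, with 34 genes higher in LK cells, and its sign under IL-1β depended on the LSK library, as given above.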

How the data were processed

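RNA was measured in sorted LSK and LK cells, and the unit of every value used is the count of read pairs per gene that the authors deposited, 1 table of 5 libraries for each population, without normalization. The submitters' processing notes name fastp 0.20.0, HISAT2 2.0.1, SAMtools 1.10, featureCounts 2.0.2, DESeq2 and the GRCm38 build. Counting was reverse-stranded after rRNA depletion, so residual ribosomal RNA takes a share of each total. Gene symbols came from GENCODE vM21, which matched 55227 of 55487 identifiers.

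The quasi-likelihood test of edgeR 4.0.16 under R 4.3.3, in its robust form, followed a low-count filter by filterByExpr and TMM scaling. It was fitted separately to the IL-1β and the PBS libraries and jointly for the difference of both contrasts. CPM is counts per library total after TMM over the 10 libraries. Standard errors are the size of the log2 difference over the square root of F. DESeq2 1.42.0, limma 3.58.1 (voom), other scalings and filters, thinning to the shallowest library and leaving out each library were alternatives. Leaving 1 library out leaves an arm with 1, which is then assumed to vary like the other arm. Totals were 4393233 to 8641124 for the IL-1β libraries. Labels do not say whether replicates came from separate mice, so p-values measure the spread between these libraries, moderated by a spread shared across genes. With the block or with 1 library left out, 1 residual degree of freedom remained, so small p-values there lean on the shared spread. Bounds against 3 counts per library cover counting error only.

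Libraries of both populations with the same replicate number had deviations from their group means that correlated at 0.10 under IL-1β and 0.21, 0.13 and 0.48 under PBS. LSK PBS replicate 2, however, correlated best with LK PBS replicate 1. The labels do not say that a number marks the same mice. Deviations of the 2 IL-1β pairs are mirror images, so they give a single correlation.

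The comparison, the gene lists and the tests were chosen with earlier results of these data known. Genes are named by a rule: the 10 largest called differences in each direction with a mean of at least 4 log2 CPM and no overlap, up to 4 members of each list with the highest level, fixed lineage, receptor and signaling genes, and genes called for the difference of contrasts. On simulated counts, edgeR recovered 89.8% of 196 genes changed by a log2 of 2 under IL-1β (11679 tested, 5 false calls), 82.6% of 195 under PBS (12881 tested, 6 false calls) and 54.7% of 192 for the difference (13515 tested, 4 false calls). The simulated spread was the same in both populations and followed the expression level alone. It did not hold the unequal spread of the real LSK and LK libraries, so these figures cannot give the recovery or false calls in the real data. One item is not reported here.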

Additional observations from a re-analysis of the deposited data

Results flagged for a closer look

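For 4 genes the LSK minus LK difference itself differed between IL-1β and PBS, by edgeR's quasi-likelihood test over the 10 libraries. The difference was 2.12 log2 units higher under IL-1β for Mt1, and lower by these log2 changes for the others: -4.34 for Nfatc2, -4.78 for Lax1 and -3.58 for Il18rap. No group held the 4 libraries needed to test for a single library far from the rest.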

How the results depend on the processing

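With 2 libraries per population the number of calls under IL-1β is uncertain. Most named genes kept their direction. For genes named because they were called without overlap, this was largely set by the naming rule. Of 1144 values of named genes under alternatives, 1006 kept their direction and call, 96 gained a call, 30 lost one and 12 changed sign. The 491 genes higher in LSK and 486 higher in LK cells became 1013 and 1044 with the replicate block, 295 and 314 in the fit of all 10 libraries, 1070 and 1094 with no filter on low counts, and 118 to 2023 and 240 to 2147 with 1 library left out. The 138 called list members became 256 with the block, 258 with no filter and 99 to 354 with 1 library left out. Under PBS, 2345 and 1635 became 1302 to 2796 and 843 to 2169 with 1 library left out, the lowest without LK PBS replicate 1 (1302 and 843) and then LK PBS replicate 2 (1318 and 996). The 4 genes whose difference differed became 24 with the block, 332 by DESeq2, 398 with no filter, 1 by limma-voom and 0 to 336 with 1 library left out. Differences that changed sign were those of Ltf (-0.10 with the block, -0.018 in the fit of all 10 libraries) and Nfatc2 (-0.14 after thinning). With 1 library left out, changes of sign gave ranges of -0.15 to 0.24 for Kit, -1.82 to 1.47 for Ltf, -8.10 to 1.29 for Camp, -0.40 to 0.12 for Lcn2, -1.05 to 2.3e-05 for Il1rl1, -2.14 to 0.097 for Cish and -0.15 to 0.29 for Nfatc2. None of these was called under IL-1β. The replicate block changed no call of the named genes other than those given beside them. The causes were not tested. Leaving out the mitochondrially encoded genes was chosen after seeing the data.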
